A study of Rattus norvegicus with 11 samples.

Results

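The 10 genes described here encode transcription factors that set the fate of urothelial and related epithelial cells: Foxa1, Gata3, Pparg, Elf3, Klf5, Grhl3, Tp63, Tfap2a, Foxj1 and Tp73. They were taken by symbol from a table of 18507 genes. They were chosen by their FPKM values in obstructed and normal bladders, seen in an earlier analysis of these data, so those differences are given as a description without a test. RNA was sequenced from bladder tissue of female Sprague-Dawley rats about 0.5 years old, and which layers of the bladder were taken is not stated. The PBOO groups had a partial bladder outlet obstruction, made with a suture tied around the bladder neck and urethra. The control groups are labelled normal, and according to the methods their abdomen was opened without the tie. Week 4 held 3 PBOO and 3 normal samples, and week 5 held 2 PBOO and 3 normal samples, the latter being described as adult. The obstruction is mechanical, no allele or transgene is involved, and the samples are not described as pooled. The study calls the samples of a group biological replicates, and 1 PBOO sample of week 5 was left out at library construction for its quality. Each level is an FPKM value, fragments scaled to the length of the transcript and to all mapped fragments, which allows levels to be compared between genes.

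The urothelium is the layered lining of the bladder. Basal cells on the basement membrane carry keratins 5 and 14, and umbrella cells at the lumen carry uroplakin plaques and keratin 20. GATA3, FOXA1, PPARG and ELF3 are known for the luminal programme, KLF5 and GRHL3 for epithelial maturation and the barrier, and p63 for the basal layer. AP-2 alpha (Tfap2a) is known from the epidermis and other stratified squamous epithelia. FOXJ1 is the master regulator of motile cilia, and p73, a relative of p63, acts upstream of it in multiciliated airway cells. The urothelium is not a multiciliated epithelium.

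The tissue label was checked against marker genes. The uroplakins Upk1b, Upk2 and Upk3a, the keratins Krt5, Krt15, Krt18 and Krt19, and smooth muscle genes were abundant in the normal samples of both weeks. The uroplakin Upk3b was between 64.2 and 76.6 FPKM in normal samples of week 5 but listed at 0 in all samples of week 4. In all, 5 of 20 luminal and 4 of 20 basal marker genes were listed at 0 in every week 4 sample. The summed FPKM of 10 smooth muscle genes lay between 26333 and 28578 in normal and between 52243 and 83240 in PBOO samples at week 4. At week 5 it lay between 25536 and 29839 in normal samples, but between 1005 and 1885 in both PBOO samples. A list of 10 fibroblast genes went the same way at week 5, from 1618 to 2068 in normal samples and from 130 to 211 in PBOO samples. Both PBOO samples of week 5 thus held far less of the markers of the bladder wall than any other sample. At week 4 the smooth muscle sum was higher in PBOO samples, with a median log2 difference of 0.61 over the 10 genes. Of these 3 were called higher, Actg2, Cnn1 and Des. Their mean FPKM was 4421, 1796 and 2242 in normal and 22070, 7152 and 8621 in PBOO samples. Smtn, Mylk and Lmod1 differed by 0.02, 0.20 and 0.21. Whether the same layers of the bladder were sampled in both groups is not stated, and a different share of the layers cannot be told apart from a change within them. The part of these shifts in the differences of the 10 factors was not tested. In bulk tissue, fewer cells of a type and less RNA per cell cannot be told apart.

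To set the factors against the amount of epithelium, each was also expressed relative to the mean log2 level of 16 pan-epithelial genes, among them Epcam, the cell adhesion molecule of epithelia. At week 4 that mean was 6.15, 5.63 and 5.75 in normal samples and 5.51, 5.09 and 4.85 in PBOO samples, with every PBOO sample below every normal one. At week 5 it was 6.21, 6.02 and 6.29 in normal samples and 6.81 and 6.38 in PBOO samples, all PBOO values being higher. The mean log2 difference of the list between PBOO and normal was -0.69 at week 4 and 0.42 at week 5. Over all genes tested the median log2 difference was -0.25 at week 4 and 0.12 at week 5.

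In the normal bladders of week 4 the factors fell into 3 tiers of FPKM. Elf3 had the highest mean at 105 ± 31.7 (SD, n = 3), followed by Pparg at 81.6 ± 8.42, Grhl3 at 81.1 ± 23.4, Klf5 at 62.5 ± 8.44 and Gata3 at 57.8 ± 11.1. The ranges of neighbours among these 5 overlapped. Foxa1 at 28.2 ± 3.73 and Tp63 at 24.2 ± 3.79 came next, overlapping with each other but not with Gata3. Foxj1 at 0.656 ± 0.104, Tfap2a at 0.470 ± 0.126 and Tp73 at 0.0357 ± 0.0379 formed the lowest tier. In the normal bladders of week 5 the order was Grhl3 at 133 ± 44.1, overlapping with Elf3 at 116 ± 5.44, then Pparg at 77.6 ± 5.17, then Klf5 at 64.5 ± 6.79 and Foxa1 at 63.7 ± 2.92, which overlapped. Gata3 at 30.6 ± 2.48 and Tp63 at 8.83 ± 1.65 followed, each apart from its neighbours, before Tfap2a, Foxj1 and Tp73. In the PBOO samples of week 5 the order had Elf3 first at 499 ± 152 (SD, n = 2), with Klf5 at 128 ± 50.6 and Foxa1 at 118 ± 14.7 after it, while Grhl3 was the fifth at 62.5 ± 25.8.

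**Figure D1:**
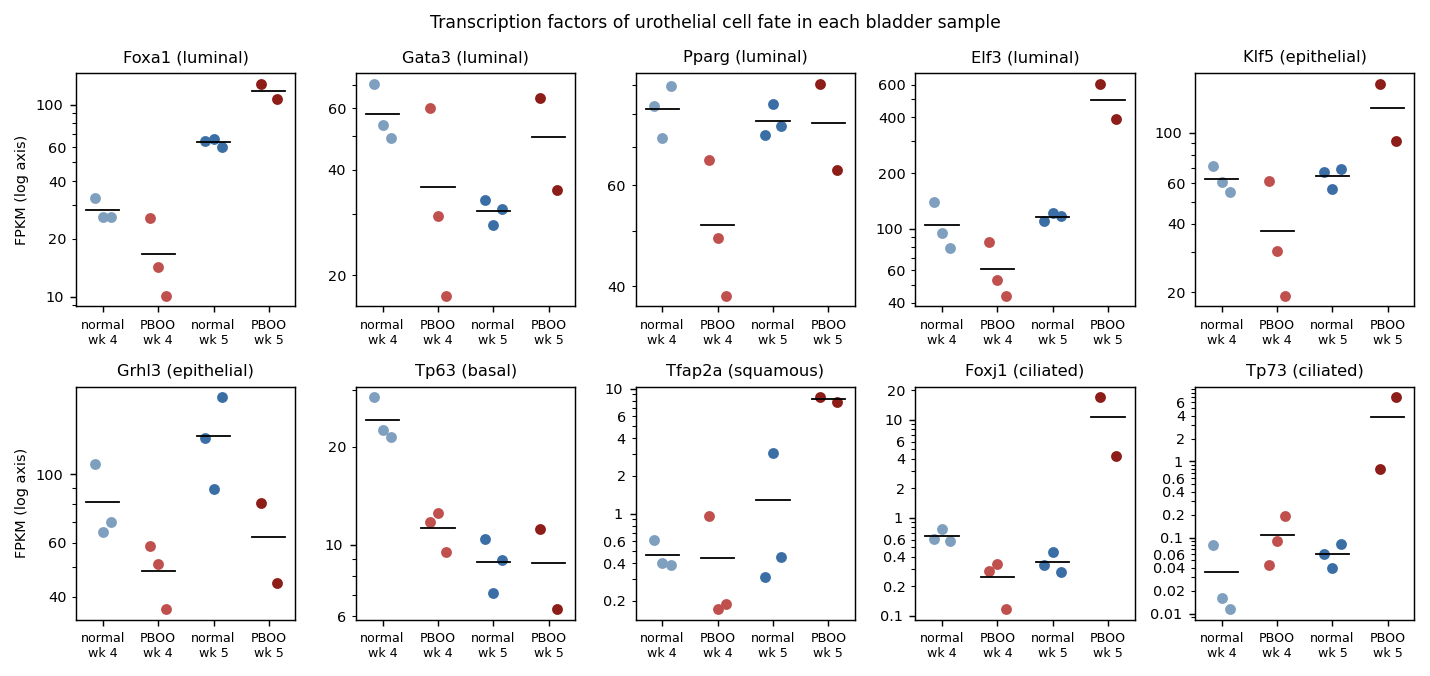
FPKM of each of the 10 factors in every bladder sample, on a log axis whose range differs between panels. Points are samples, lines are group means, and the word after each gene gives the programme it is known for. Elf3, Foxj1, Tp73 and Tfap2a are higher in both PBOO samples of week 5 than in any other sample, and Grhl3 is lower there than in any normal sample of week 5.

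Across the 10 factors the median log2 difference was -0.83 at week 4 and 0.91 at week 5. At week 4, 9 means were lower and 1 was higher. Of the 7 factors that passed the filter on low values 4 were lower without overlap, a state reached by 34.9% of all genes tested, while 6.63% were higher in that way. At week 5 all 10 were tested, and 7 were higher without overlap, 1 was lower and 2 overlapped. Among all genes tested 35.3% were higher without overlap at week 5 and 25% were lower. At week 5, 5 factors were past p under 0.05 and 2-fold, with Elf3, Tfap2a, Foxj1 and Tp73 on the higher side and Grhl3 on the lower. Of all genes tested 22.4% were past them, 9.82% higher and 12.6% lower. At week 4 only Tp63 was, on the lower side, against 4.9% of all genes, 2.46% higher and 2.45% lower. These are 278 higher and 277 lower genes, and 412 and 117 after median-ratio scaling. These counts belong to the comparison from which the factors were known, so they describe the factors and test nothing. Foxj1 and Tp73 passed the filter on low values at week 5 only through their high PBOO samples, their normal means being 0.351 and 0.0618 FPKM, and so had to differ. Just inside the 2-fold line at week 5 was Grhl3 at -1.09, and just outside were Klf5 at 0.94 and Foxa1 at 0.88.

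Relative to the pan-epithelial list the week 4 differences of 8 of 10 factors overlapped between the groups, with a median of -0.14. Tp63 was lower and Tp73, at very low levels, higher. At week 5 the median was 0.49, and 6 factors were higher, 3 were lower and 1 overlapped. The share of all genes without overlap was not computed on this relative scale. As deposited it was 35.3% higher and 25% lower at week 5, so the counts only describe the factors. The higher ones were Foxa1, Elf3, Klf5, Tfap2a, Foxj1 and Tp73, and the lower ones Pparg, Grhl3 and Tp63. Because Krt18 fell at week 5 by 1.50 on the log2 scale (SE 0.20, adjusted p = 0.00429 with limma), the list was also used, as a choice made after seeing the data, without Krt8 and Krt18, which gave medians of -0.13 and 0.30.

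**Figure D2:**
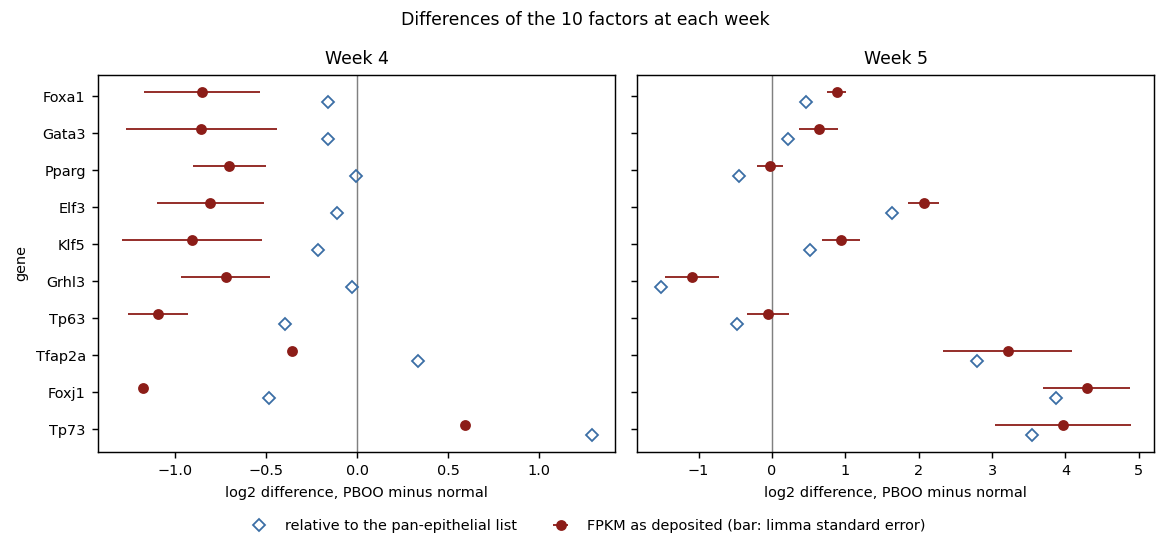
Log2 difference, PBOO minus normal, of each factor at each week, as deposited (circles, bars are limma standard errors, absent for the 3 factors too low to be tested at week 4) and relative to the mean of the pan-epithelial list (diamonds). At week 4 the diamonds of Foxa1, Gata3, Pparg, Elf3, Klf5 and Grhl3 sit between -0.21 and -0.01, while at week 5 Elf3, Tfap2a, Foxj1 and Tp73 stay above 1 and Grhl3 below -1 in both forms.

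The promoters of 4 factors are shown because Gata3 was the gene nearest to Klf5 in pattern, while Elf3 and Grhl3, similar in level in the other 9 samples, parted at week 5. The sequences are the 250 bases before the gene start in RefSeq on the rat build GRCr8, 5′ to 3′ on the strand of the gene, with motif matches in capitals. They are reference sequence and were not read from the samples. Of the 10 factors 7 had an entry, and Foxa1, Foxj1 and Tfap2a had none. Gata3 lies at chr17:73553298-73553547 on the plus strand, Klf5 at chr15:82471831-82472080 on the plus strand, Elf3 at chr13:49247087-49247336 on the minus strand and Grhl3 at chr5:153089891-153090140 on the minus strand.
Gata3: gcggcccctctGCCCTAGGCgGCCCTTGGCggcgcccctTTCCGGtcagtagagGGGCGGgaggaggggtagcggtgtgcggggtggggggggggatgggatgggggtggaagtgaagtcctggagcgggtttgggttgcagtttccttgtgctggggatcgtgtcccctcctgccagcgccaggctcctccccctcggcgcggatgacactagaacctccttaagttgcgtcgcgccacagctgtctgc
Klf5: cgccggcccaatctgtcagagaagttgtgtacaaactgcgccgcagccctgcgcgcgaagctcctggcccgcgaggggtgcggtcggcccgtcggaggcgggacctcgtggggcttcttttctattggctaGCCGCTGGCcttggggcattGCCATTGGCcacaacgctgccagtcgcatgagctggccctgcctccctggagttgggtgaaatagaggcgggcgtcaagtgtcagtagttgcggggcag
Elf3: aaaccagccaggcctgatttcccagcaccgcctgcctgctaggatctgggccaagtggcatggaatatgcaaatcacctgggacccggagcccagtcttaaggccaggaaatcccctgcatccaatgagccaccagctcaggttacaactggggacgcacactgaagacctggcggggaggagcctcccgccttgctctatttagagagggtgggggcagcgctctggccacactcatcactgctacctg
Grhl3: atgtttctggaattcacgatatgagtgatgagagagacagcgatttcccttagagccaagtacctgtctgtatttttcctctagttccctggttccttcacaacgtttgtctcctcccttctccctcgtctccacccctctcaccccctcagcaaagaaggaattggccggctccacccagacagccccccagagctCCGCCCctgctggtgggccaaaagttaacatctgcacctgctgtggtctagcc

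Both strands were searched for 7 motifs. These were GCCNNNGGC, bound by AP-2 factors, and the GC box GGGCGG, bound by KLF and SP factors. The others were the ETS core CCGGAA, the GATA motif AGATAA, the forkhead motif TGTTTAC, the palindrome AACCGGTT of grainyhead factors, and TATAAA, the TATA box. Gata3 held 2 AP-2 matches, at 239 to 231 and 229 to 221 bases before the start, with 1 GC box and 1 ETS core. None of these matches overlapped. Klf5 held 2 AP-2 matches, at 119 to 111 and 99 to 91 bases before the start. The paired motif was not particular to Gata3 and Klf5. Of the 2 promoters of Pparg, not printed here, 1 also held 2 AP-2 matches, at 219 to 211 and 202 to 194 bases before the start. That promoter held 3 GC boxes as well, and the other held none of the motifs. AP-2 factors are the family of Tfap2a, and 12.6% of the 33469 promoters in the table held this motif, while 1.89% of all promoters held it 2 or more times. Grhl3 held 1 GC box, a motif found in 30.5% of promoters, and Elf3 held none of the motifs searched. The GC content was 68.4% for Gata3, 65.2% for Klf5, 59.6% for Elf3 and 54.0% for Grhl3, against a median of 51.2% over all promoters. A match only says that these letters occur in the window.

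The normal samples of both weeks offered a comparison between weeks, which was not the comparison used in choosing the factors. The same normal values did enter that choice, so the tests below are not independent of it. Week, age, sequencing run and quantification cannot be told apart in it. Of 9 factors that could be tested, Foxa1 rose at least 2-fold and Tp63 fell at least 2-fold between week 4 and week 5 with an adjusted p under 0.05. Among 11131 genes tested 28.5% passed these thresholds (2.3% higher and 26.2% lower, that is 256 and 2918 genes, but 909 and 1343 after median-ratio scaling), and the median log2 difference of all genes was -0.52. Foxa1 was at 32.5, 26.0 and 26.1 FPKM in the normal samples of week 4 and at 64.7, 66.0 and 60.4 in those of week 5. Its log2 difference was 1.18 (SE 0.11, adjusted p = 0.000149 with limma), and the weeks did not overlap. Foxa1 was thus higher where the median gene was lower. Tp63 was at 28.5, 22.5 and 21.5 FPKM at week 4 and at 10.4, 7.11 and 8.99 at week 5, a log2 difference of -1.45 (SE 0.17, adjusted p = 0.000456 with limma). After median-ratio scaling, which moves the median of all genes to about zero, the difference of Tp63 was -0.93 with an adjusted p of 0.00643 by limma, short of 2-fold.

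Gata3 was lower at week 5 by a log2 difference of -0.90 (SE 0.14, adjusted p = 0.00166 with limma), short of the 2-fold threshold. It was thus not called, but passed both thresholds when normal week 4 replicate 3 was left out, at -1.01 with an adjusted p of 0.00285 by limma. The ratio of Foxa1 to Gata3 in FPKM was between 0.425 and 0.578 in the 6 samples of week 4. In the 3 normal samples of week 5 it was between 1.95 and 2.37, so that the order of these luminal factors turned between the weeks. Grhl3 differed by 0.69 (SE 0.29, adjusted p = 0.0727 with limma), and by 1.22 after median-ratio scaling, where it passed both thresholds with an adjusted p of 0.0158 by limma. Foxj1 differed by -0.75 (SE 0.32, adjusted p = 0.0796 with limma), and by -2.38 after quantile normalization with an adjusted p of 8.83e-05 by limma. Differences of Elf3 (0.19, SE 0.20), Pparg (-0.07, SE 0.10), Klf5 (0.05, SE 0.13) and Tfap2a (0.68, SE 0.77) had adjusted p-values between 0.421 and 0.755 by limma, and Tp73 was too low to be tested.

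Among the luminal factors, Foxa1, a pioneer factor that opens chromatin for nuclear receptors, was lower at week 4 and higher at week 5 in PBOO. At week 4 its FPKM was 25.5, 14.3 and 10.1 in PBOO samples, all below the normal range, a log2 difference of -0.85 (SE 0.32). By week 5 it was 128 and 108 in PBOO samples, above the normal range, and the difference was 0.88 (SE 0.13). Relative to the pan-epithelial list the week 4 groups overlapped, with a difference of -0.16, and the week 5 samples were still higher, by 0.46.

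Gata3 is the GATA factor of luminal urothelium and is also used by T cells and innate lymphoid cells. At week 4 it was at 70.4, 53.7 and 49.3 FPKM in normal samples and at 60.1, 29.6 and 17.5 in PBOO samples. The groups overlapped through PBOO replicate 1, and the log2 difference of -0.86 (SE 0.41) became -1.32 without it. At week 5 Gata3 was at 32.8, 27.9 and 31.0 in normal samples and at 64.2 and 35.1 in PBOO samples, a log2 difference of 0.64 (SE 0.26). Both PBOO samples were higher, but replicate 2 only slightly so. The difference was 0.20 without PBOO replicate 1 and 1.07 without replicate 2, and relative to the pan-epithelial list the groups overlapped (0.21).

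T cell genes moved beside it. Of 14 genes of the T cell and innate lymphoid list in the table, 12 were tested in each week. None was called at week 4, and 7 rose at week 5, a count that was 2 when PBOO replicate 2 was left out. The summed level of the list was between 16.4 and 25.4 FPKM in normal samples and was 28.2 and 99.99 in PBOO samples at week 5, after 18.6 to 66.6 and 44.6 to 53.5 at week 4. Cd3e, a subunit of the T cell receptor complex, was at 2.65 and 9.21 FPKM in the PBOO samples, and it was PBOO replicate 1, with the lower Cd3e, that had the higher Gata3. Cd3d and Zap70, both among the 7, had normal means of 0.447 and 0.473 FPKM at week 5. They passed the filter on low values only through their PBOO samples, and so had to be higher there. The part of T cells in the level of Gata3 was not tested.

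Pparg, the nuclear receptor of urothelial and fat cell differentiation, was at 82.7, 72.7 and 89.4 FPKM in normal and 66.4, 48.6 and 38.5 in PBOO samples at week 4. All PBOO values were lower, with a log2 difference of -0.70 (SE 0.20). The week 5 values were 73.3, 83.4 and 76.1 in normal and 90.3 and 63.8 in PBOO samples, one PBOO sample on each side of the normal range (-0.03, SE 0.18). Relative to the pan-epithelial list it did not differ in range at week 4 (-0.01) and was lower in both PBOO samples at week 5 (-0.45). Its heterodimer partner Rxra had log2 differences of -0.48 (SE 0.30) and -0.37 (SE 0.42) at weeks 4 and 5, with adjusted p-values of 0.283 and 0.534 by limma.

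Fat cell genes also tended to be lower in PBOO at week 4. Of 14 adipocyte genes tested 7 were lower and none higher, with a median log2 difference of -1.09, although only 3 were called after median-ratio scaling or without normal replicate 3, and 4 without normal replicate 1. Fabp4, a fatty acid binding protein of the adipocyte list, was at 967, 865 and 1016 FPKM in normal and 289, 450 and 797 in PBOO samples. Its log2 difference of -1.01 (SE 0.34, adjusted p = 0.107 with limma) lost its call after median-ratio scaling (-0.76). Adipoq, the adipokine adiponectin, differed by -1.42 (SE 0.28, adjusted p = 0.0551 with limma) at week 4, and was listed at 0 in 2 of 3 normal samples of week 5. The summed level of the list was between 1078 and 1280 in normal and between 439 and 1082 in PBOO samples at week 4. At week 5 it was between 1017 and 1138 in normal and between 1086 and 1309 in PBOO samples, and 4 of 12 tested genes were lower. Most of the week 5 sum was Fabp4, at 1001, 879 and 1035 FPKM in normal samples, where Adipoq was at 0, 5.13 and 0. The sum thus mainly reports Fabp4. Within the PBOO samples of week 4, replicate 1 had the highest Pparg but the lowest Fabp4 and Adipoq. Adipoq was at 5.42, 10.1 and 9.89 FPKM in replicates 1, 2 and 3. The adipocyte list gene Adrb3 had the order of Pparg, at 4.16, 1.94 and 1.11. Cidea, at 1.73, 3.25 and 1.10, and Scd, at 1.79, 10.7 and 1.73, are on the same list and were highest in replicate 2. The part of fat cells in the level of Pparg was not tested.

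Elf3, an ETS factor of epithelial differentiation, had the widest luminal difference. Its FPKM at week 4 was 140, 95.2 and 78.9 in normal and 85.0, 52.9 and 43.6 in PBOO samples, overlapping through 1 PBOO sample (log2 difference -0.81, SE 0.30). Week 5 gave 111, 122 and 117 in normal samples against 607 and 392 in PBOO samples. That is 4.29 times the normal mean, a log2 difference of 2.07 (SE 0.21), and 1.64 remained relative to the pan-epithelial list. Its relative Ehf, an epithelial ETS factor, rose at week 5 by 1.05 (SE 0.11, adjusted p = 0.00243 with limma), and by 0.95 after median-ratio scaling, just under 2-fold.

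Luminal structural genes did not follow 1 direction at week 5. Of 18 tested genes of the luminal list 7 fell and 2 rose, with a median log2 difference of -0.57. Keratin 20 (Krt20), the umbrella cell keratin, was at 72.7, 37.5 and 90.6 FPKM in normal samples and at 0.940 and 0.382 in PBOO samples, a log2 difference of -6.47 (SE 0.48, adjusted p = 0.000760 with limma). Upk2, a uroplakin of the luminal plaque, fell by 2.39 on the log2 scale (SE 0.16, adjusted p = 0.000532 with limma), from a mean of 1704 ± 140 (SD, n = 3) to 324 ± 4.95 FPKM (SD, n = 2). Upk3a, another uroplakin, did not pass the test, with 0.03 (SE 0.18, adjusted p = 0.901 with limma) and overlapping groups. The genes that rose were the keratin Krt19, by 1.75 (SE 0.35, adjusted p = 0.0172 with limma), and the tight junction gene Cldn4, by 1.56 (SE 0.29, adjusted p = 0.0131 with limma). At week 4, by contrast, 2 of 14 tested luminal genes were past the thresholds, Krt20 and Cldn4, both lower and both with adjusted p-values above 0.05 (0.116 and 0.0538 with limma), and neither was called after median-ratio scaling. The count was 0 without normal replicate 1, 5 without normal replicate 2, 1 without PBOO replicate 3 and 4 without PBOO replicate 1. The uroplakins Upk1b, Upk2 and Upk3a differed by -0.70, -0.73 and -0.86 at week 4, short of 2-fold, with adjusted p-values between 0.0538 and 0.0645 by limma.

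Klf5, a Krüppel-like factor of epithelial maturation, was near Gata3 in its pattern around the week means, and near it in level at week 4 only. It was at 71.8, 60.7 and 55.2 FPKM in normal and 61.6, 30.4 and 19.3 in PBOO samples at week 4, with overlap through PBOO replicate 1 (log2 difference -0.91, SE 0.38, and -1.36 without that sample). Week 5 values were 67.2, 56.8 and 69.5 in normal and 164 and 92.6 in PBOO samples. Both PBOO samples were higher, with a log2 difference of 0.94 (SE 0.26) that was 0.53 without PBOO replicate 1 and 1.35 without replicate 2. Relative to the pan-epithelial list the difference at week 5 was 0.51, again without overlap. Klf4, a related factor of the epithelial barrier, differed by -0.23 (SE 0.39, adjusted p = 0.691) at week 4 and by -0.69 (SE 0.49, adjusted p = 0.326) at week 5 with limma.

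Grhl3, a grainyhead factor needed for umbrella cells and epithelial barriers, was the factor with the clearest lower level at week 5. Its FPKM at week 4 was 108, 65.1 and 70.1 in normal and 58.3, 51.3 and 36.5 in PBOO samples, all of the latter lower (log2 difference -0.72, SE 0.24). Week 5 levels were 131, 89.2 and 177 in normal and 80.8 and 44.3 in PBOO samples. The normal mean was 2.12 times the PBOO mean, with a log2 difference of -1.09 (SE 0.37) that was -1.52 without PBOO replicate 1 and -0.66 without replicate 2, and -0.85 without normal replicate 3. Relative to the pan-epithelial list the difference at week 5 was -1.51.

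Of its relatives, Grhl2, the grainyhead factor of epithelial junctions, differed by 0.64 (SE 0.12, adjusted p = 0.0139 with limma) at week 5, higher in both PBOO samples but short of 2-fold. Grhl1 differed by -0.09 (SE 0.20, adjusted p = 0.757 with limma) and is listed at 0 in all samples of week 4, so that it could be compared at week 5 only. The ratio of Elf3 to Grhl3 was between 0.660 and 1.46 in the 9 other samples, and 7.51 and 8.84 in the PBOO samples of week 5. No other sample came near these ratios, which scaling a library by 1 factor leaves unchanged.

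Tp63, the factor of the basal layer, was the only one of 7 tested factors past p under 0.05 and 2-fold at week 4, though only just. Of all genes tested 4.9% were past them, 2.45% on the lower side. The factors were chosen with this comparison known, so being past them describes Tp63 and tests nothing. Against the 28.5, 22.5 and 21.5 FPKM of the normal samples stood 11.7, 12.5 and 9.51 in PBOO samples, a log2 difference of -1.09 (SE 0.16), with the normal mean 2.15 times the PBOO mean. The difference was short of 2-fold after median-ratio scaling (-0.84) or quantile normalization (-0.87), and without normal replicate 1 (-0.97) or PBOO replicate 3 (-0.98). It was also the only factor lower without overlap relative to the pan-epithelial list at week 4 (-0.40). At week 5 the PBOO values of 11.2 and 6.32 lay on both sides of the normal 10.4, 7.11 and 8.99 (-0.05, SE 0.29), and relative to the pan-epithelial list both were lower (-0.48).

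Basal genes went another way than Tp63 at week 5. Of 20 basal genes 9 rose and none fell, with a median log2 difference of 0.85, and the summed level was between 1791 and 2245 FPKM in normal and between 6484 and 9142 in PBOO samples. Krt17, a keratin among the 9, had a normal mean of 0.461 FPKM and passed the filter on low values only through its PBOO samples. Krt5, the basal keratin, was at 182, 124 and 97.4 FPKM in normal samples and at 780 and 2859 in PBOO samples, a log2 difference of 3.52 (SE 0.58, adjusted p = 0.00893 with limma). Krt15, a further basal keratin, rose by 2.50 (SE 0.18, adjusted p = 0.000657 with limma). Krt14 differed by 3.19 (SE 1.11, adjusted p = 0.0806 with limma). Its call was lost without PBOO replicate 2 (1.56), which held 1078 FPKM against 112 in replicate 1, and without normal replicate 2 (2.56) or 3 (3.26). At week 4, 1 of 16 tested basal genes was past the thresholds, Krt15, lower by a log2 difference of -1.06 (SE 0.28, adjusted p = 0.0783 with limma), and 5 were lower without PBOO replicate 1. The call of Krt15 was lost under median-ratio scaling (-0.81) and without normal replicate 1 or PBOO replicate 2 or 3, at differences between -0.99 and -0.80. Over the 16 tested basal genes the median log2 difference at week 4 was -0.63. The other keratins of the list were not called. Krt5 differed by -0.47, Krt17 by 0.30 and Krt14 by 1.25 (SE 0.62, adjusted p = 0.203 with limma), each with overlapping groups. Krt14 was called higher without PBOO replicate 2 (1.96). At week 4 Tp63 and Krt15 were thus both lower, while Krt14 was not. At week 5 the Krt5 and Krt15 keratins rose at a level of Tp63 near the normal range.

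Tfap2a, the AP-2 factor, was low in most samples. It was at 0.615, 0.405 and 0.390 FPKM in the normal samples of week 4 and at 0.964, 0.172 and 0.190 in the PBOO samples, too low to be tested. In week 5 samples it was at 0.313, 3.06 and 0.451 in normal and at 8.55 and 7.88 in PBOO samples. Both PBOO samples were higher, with a mean 6.44 times the normal one, and 1 normal sample stood well above the others. The log2 difference of 3.21 (SE 0.88) was 4.12 without that sample. Its close relative Tfap2c, an AP-2 factor of skin and gland epithelia, rose by 1.70 (SE 0.22, adjusted p = 0.00441 with limma), whereas Tfap2b was below the filter on low values.

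Squamous genes rose at week 5 beside Tfap2a. Of the 26 genes of the squamous list that were in the table, 16 were tested, 7 rose and none fell, with a median log2 difference of 1.23. Without PBOO replicate 2 the count was 4. Involucrin (Ivl), a protein of the cornified envelope, was at 10.02, 5.97 and 6.51 FPKM in normal samples and at 38.4 and 36.4 in PBOO samples, a log2 difference of 2.34 (SE 0.24, adjusted p = 0.00214 with limma). Krt16, a keratin of activated squamous epithelium, differed by 4.13 (SE 1.15, adjusted p = 0.0443 with limma), at 0.716 and 10.02 FPKM in the PBOO samples. Krt16 and Krt1, both among the 7, had normal means of 0.0803 and 0.379 FPKM at week 5. They passed the filter on low values only through their PBOO samples, and so had to be higher there. Krt13 and the transglutaminase Tgm1, which are common squamous markers, were under the filter, Krt13 at 0.103 and 1.01 FPKM in PBOO samples and listed at 0 in the normal samples of week 5. At week 4 none of 13 tested squamous genes was called. Other factors of stratified epithelia rose as well at week 5, Ovol2 by 1.55 (SE 0.23, adjusted p = 0.00656) and Ovol1 by 1.51 (SE 0.43, adjusted p = 0.0466) with limma. The call of Ovol1 was lost without PBOO replicate 2 (0.94).

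Foxj1 was under 1 FPKM in every sample but the PBOO samples of week 5. It was at 0.610, 0.776 and 0.583 in normal and at 0.286, 0.337 and 0.117 in PBOO samples at week 4, all PBOO values lower at a level below the filter. Week 5 levels were 0.328, 0.448 and 0.278 in normal samples against 17.1 and 4.32 in PBOO samples. The PBOO mean was 30.4 times the normal mean, and the log2 difference was 4.29 (SE 0.60), between 3.31 and 5.27 when either PBOO sample was left out.

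Tp73 was at 0.0794, 0.0161 and 0.0115 FPKM in normal and 0.0437, 0.0894 and 0.193 in PBOO samples at week 4. The week 5 levels were 0.0617, 0.0404 and 0.0832 in normal and 0.788 and 7.01 in PBOO samples. The PBOO samples were higher, with a mean 63.1 times the normal one that rests mostly on replicate 2. The log2 difference of 3.97 (SE 0.93) was 2.46 without that sample. The 2 ciliated-cell factors did not keep the same order, since Foxj1 was higher in replicate 1 and Tp73 in replicate 2.

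Genes of motile cilia showed no common direction beside Foxj1 and Tp73. Of 28 motile cilia genes measured 10 were tested at week 5, and 1 rose, 3 fell and 6 were not called, with a median log2 difference of 0.08. Of all genes tested 9.82% were called higher and 12.6% lower. The summed level of the cilia list was between 47.6 and 59.3 FPKM in normal and between 43.1 and 49.0 in PBOO samples. A large part of the normal sums was 1 gene, Tppp3, at 18.8, 35.5 and 19.4 FPKM in normal and 4.26 and 10.4 in PBOO samples. The sum therefore does not show the direction of the other genes. Tekt1, a tektin of ciliary microtubules, rose by 2.51 (SE 0.43, adjusted p = 0.0101 with limma), from a mean of 0.547 ± 0.257 (SD, n = 3) to 3.53 ± 1.22 FPKM (SD, n = 2). The genes that fell were Tppp3 by 1.80 (SE 0.46, adjusted p = 0.0339 with limma), Tekt2 by 1.81 and Dnah9 by 1.87, the latter pair named after their values were seen. Without normal replicate 1 only 1 fell. Rsph1, a radial spoke gene, differed by 0.78 (SE 0.24, adjusted p = 0.0602 with limma) and was called without PBOO replicate 2. Among defining genes of motile cilia, the dynein heavy chain Dnah5 was listed at 0 or at most at 0.00277 FPKM in the week 5 samples. Ccno, a gene of centriole amplification, was listed at 0 in both PBOO samples of week 5, and the dynein gene Dnai1 was at 0.0286 FPKM in one and listed at 0 in the other. A listed 0 can be a failed estimate at week 4, since of 657 genes that averaged 100 FPKM or more at week 5, 62 are at 0 in all samples of week 4. At week 5 Dnah5, Ccno and Dnai1 were each above 0 in at least 1 normal sample. Dnai1 was at 0.106, 0.0884 and 0.261 FPKM in the normal samples, above both PBOO samples but below the filter. With depth unknown, the zeros of week 5 are not read as absence. At week 4, 1 of 8 tested cilia genes was past the thresholds, Rfx2, a partner of FOXJ1, with a log2 difference of -1.03 (SE 0.33, adjusted p = 0.1005 with limma), which was not called after median-ratio scaling (-0.78) or without PBOO replicate 3 (-0.63).

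**Figure D3:**
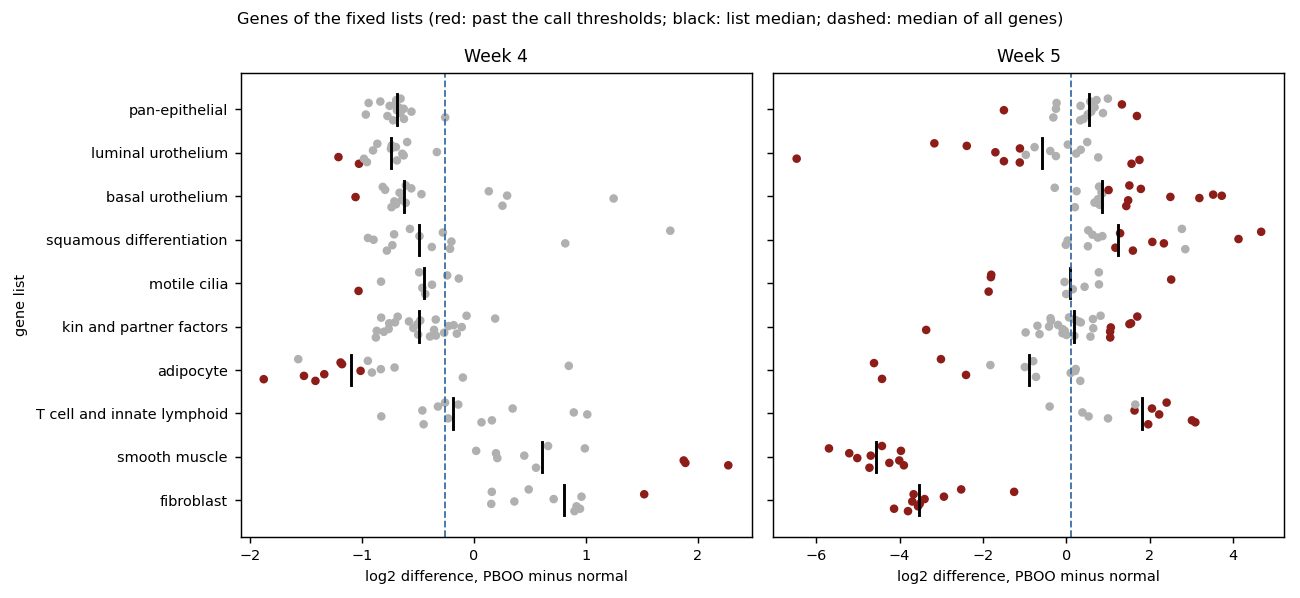
Log2 difference, PBOO minus normal, of every tested gene (points) of the 10 gene lists at week 4 and week 5. Red points passed unadjusted p under 0.05 and 2-fold, black bars are list medians, and dashed lines are the medians of all tested genes, -0.25 and 0.12. At week 5 the basal and squamous medians are 0.85 and 1.23, the luminal median is -0.57, and every smooth muscle and fibroblast gene lies below -1.

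Other factors of these families, fixed as a list of 30 kin and partner factors, showed the following. None of 24 tested was called at week 4, where their median log2 difference was -0.49, but 8 were lower without PBOO replicate 1. At week 5, 6 of 27 rose, Tfap2c, Ovol2, Ovol1, Ehf, Hes1 and Foxq1, and 1 fell, Gata6, a GATA factor of smooth muscle and other mesenchyme, by 3.36 (SE 0.24, adjusted p = 0.000657 with limma). After median-ratio scaling 3 rose and 2 fell. Of all genes tested at week 5, 22.4% were called, 9.82% higher and 12.6% lower. Gata2 differed by -0.04 (SE 0.20, adjusted p = 0.899 with limma) at week 5, and Foxa2 was below the filter and listed at 0 in 10 of 11 samples.

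The genes nearest in pattern were sought for the 3 factors that varied most around their week means. The measure was the root mean square difference of week-centred log2 values over 11 samples, where a lower value is more alike, among 10684 genes. For Foxj1 the nearest were Birc3 (0.512), Ncmap (0.574) and Ceacam1 (0.601). For Tp73 they were Ncf1 (0.558), Ache (0.575) and Sapcd2 (0.605), and for Tfap2a Slc52a3 (0.573), Lgals4 (0.577) and Pigr (0.596). Birc3, an inhibitor of apoptosis, was between 1.09 and 1.29 FPKM in normal samples of week 5 and was 24.8 and 26.3 in PBOO samples. Pigr, the epithelial receptor that carries IgA to the lumen, was between 13.7 and 53.5 in normal samples of week 5 and 590 and 207 in PBOO samples. All these genes share with their factor the high values of the same 2 libraries, which sets most of the measure. Klf5, looked up after its values were seen, had Gata3 as its nearest gene, at 0.116.

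**Figure D4:**
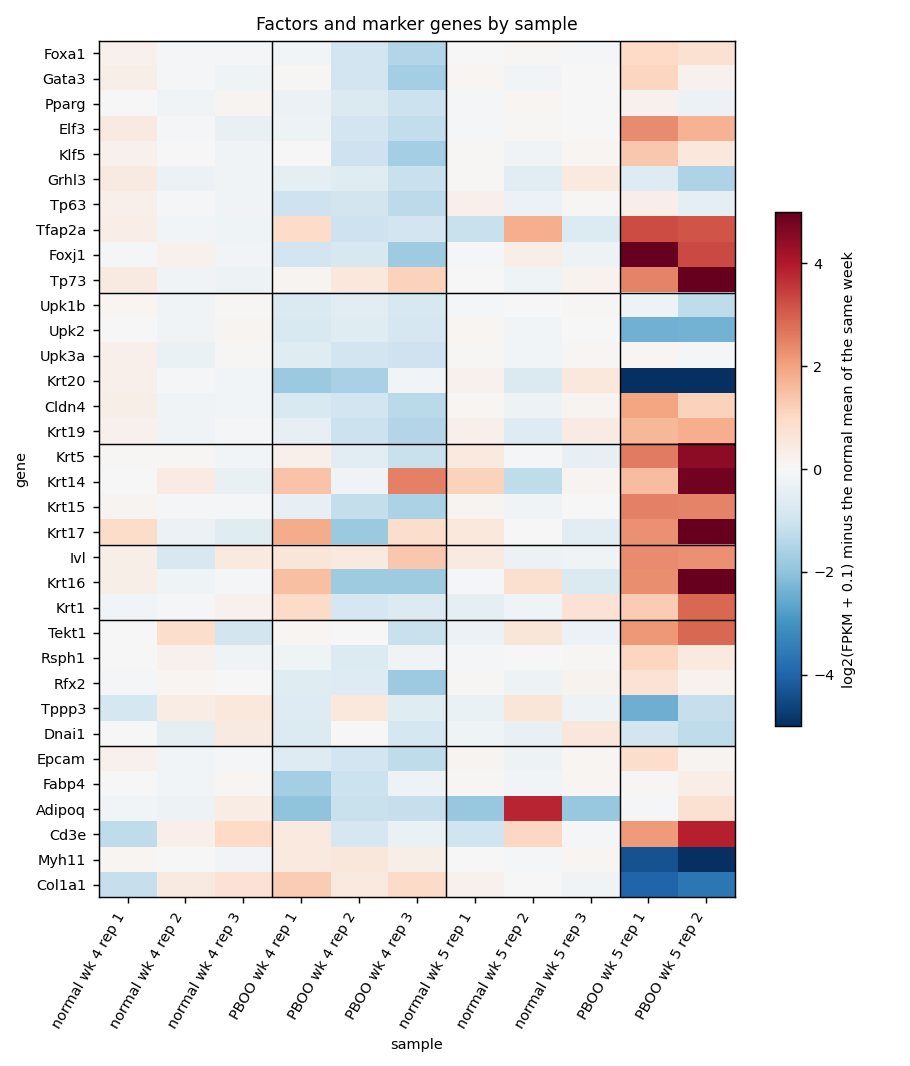
Log2(FPKM + 0.1) minus the mean of the normal samples of the same week, for the 10 factors (top block) and for luminal, basal, squamous, ciliary and other marker genes (blocks below), in each of the 11 samples. Colours stop at -5 and 5. In the PBOO samples of week 5 Krt5, Krt15 and Ivl are red while Krt20, Upk2, Myh11 and Col1a1 are blue, and PBOO replicate 1 of week 4 is paler than replicates 2 and 3 for Gata3 and Klf5.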

How the data were processed

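The authors sequenced TruSeq libraries of rat bladder tissue in pairs on a HiSeq4000, trimmed the reads with SeqPrep and Sickle, mapped them with HISAT2 2.0.4 and assembled transcripts with StringTie 1.3.1. The deposited table holds FPKM values, counted with featureCounts by the authors, for 18507 genes in 11 samples. The submitters' processing notes name the build mm10, a mouse build, while the samples are rat. Annotation and strand are not given in the sources used here. No read counts are held, so depth is unknown and no counting error is given. Column sums were between 424961 and 564343, and 4871 genes are listed at 0 in all samples of week 4 against 403 at week 5.

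Groups were taken from the sample labels, and samples of week 4 and week 5 were fitted separately with limma 3.58.1 in R 4.3.3 (lmFit, eBayes with trend) on log2(FPKM + 0.1), leaving out genes whose mean was under 0.5 FPKM. Differences are on that scale, which understates changes of low genes. A gene was called at unadjusted p under 0.05 with a 2-fold change. The study's methods state an adjusted p and 2-fold, and this call is looser than that. Its results give p under 0.05 with 2-fold at week 4 and with 4-fold at week 5. Benjamini-Hochberg adjusted p-values over all genes tested are given beside. Normal samples of the weeks were compared over genes above 0 in both weeks, with adjusted p under 0.05 and 2-fold. The steps were tested on simulated data. The 10 factors and the gene lists were chosen with earlier results of these data known. Of 206 list entries 189 matched the table by symbol, and the other 17 are not analysed here. Named genes are the 10 factors, up to 3 called genes of each list per direction and week with the largest change and a mean of at least 1 FPKM, and fixed markers. Promoters came from RefSeq (GRCr8). Python 3.11.15 with pandas 2.3.3 was used for tables and matplotlib 3.10.9 for figures. Alternatives were other pseudocounts, filters and scalings, a fit without trend, a replicate block and leaving out each sample.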

Additional observations from a re-analysis of the deposited data

Results flagged for a closer look

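With at most 3 samples in a group, no group was large enough for a check of single samples standing apart. Several genes differed in opposite directions at the 2 weeks, with no overlap between PBOO and normal in either week. These differences between weeks were not tested. Over the 10684 genes measurable in both weeks, 1606 (15%) were lower in all PBOO samples of week 4 and higher in all of week 5.

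Among the 10 factors Foxa1 was lower at week 4 (log2 difference -0.85) and higher at week 5 (0.88), and Foxj1 was lower at week 4 (-1.18), at levels under 1 FPKM, and higher at week 5 (4.29). Epithelial genes with the same pattern had week 5 differences of 0.51 for Epcam, 1.56 for Cldn4, 2.50 for Krt15 and 1.75 for Krt19. The smooth muscle genes Myh11, Actg2, Cnn1, Des and Synpo2 were higher at week 4 and lower at week 5. Their week 5 differences were -4.69, -3.90, -4.25, -4.01 and -5.70.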

How the results depend on the processing

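The count of genes called at week 4 was 555, and 336 with a pseudocount of 1. Leaving out 1 sample gave between 352 (without PBOO replicate 3) and 1024 genes (without PBOO replicate 1). At week 5 it was 3071, and between 2770 and 2909 with 1 normal sample left out. It was 1432 at a 4-fold threshold, which the study's results use for week 5 and which was added here after seeing the data. The comparison of normal samples called 3174 genes, between 2885 and 3540 with 1 sample left out. The share of week 4 calls that were higher was 50.1%, and 77.9% after median-ratio scaling. In the normal samples this share was 8.07%, and 40.4% after that scaling. At an adjusted p under 0.05, 58 genes passed at week 4, none in limma without the filter, without the trend or after median-ratio scaling (where 698, 541 and 529 passed unadjusted p under 0.05 with 2-fold), 2126 without PBOO replicate 1, 20 without normal replicate 1 and none without any 1 of the other 4 samples (where 352 to 527 passed unadjusted p under 0.05 with 2-fold).

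The median difference of the 10 factors at week 4 moved from -0.83 to -0.14 relative to the pan-epithelial list, and to -0.13 when Krt8 and Krt18 were left out of that list, which was added after seeing the data. At week 5 it moved from 0.91 to 0.49 and 0.30. With 1 sample left out it lay between -1.11 and -0.53 at week 4 and between 0.64 and 1.21 at week 5. At week 5 Pparg was at -0.28 without PBOO replicate 1 and 0.22 without replicate 2, and Tp63 at -0.46 and 0.35. No called value changed sign in any alternative, and the cause of the changes was not tested.

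Same-numbered samples of week 4 had a mean correlation of deviations of 0.12, the lowest pair at -0.02, so that the replicate number was not taken to pair the samples. With the replicate block 597 genes were called at week 4, 3026 at week 5 and 3175 in the normal samples, and the medians of the factors were -0.83 and 0.92. Unknown depth limits what can be said of Tfap2a, Foxj1 and Tp73 below 1 FPKM.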
